A study of Homo sapiens with 4 samples.

Results

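The SP and KLF zinc-finger factors described here were the 10 genes SP1, SP3, KLF2, KLF4, KLF5, KLF6, KLF7, KLF9, KLF10 and KLF11, taken by gene symbol from the 60623 gene rows of each count table. All 10 had enough counts to be tested, as had 17058 genes in all. RNA-seq was done in the BICR10 line, established from a human head and neck cancer, with 2 libraries that carried a control hairpin (shControl) and 2 that carried a hairpin against YEATS2 (shYEATS2). YEATS2 is a histone reader, a protein that binds acylated lysines on histone tails, and the study placed SP1 upstream of its transcription. All 4 libraries came from cells transduced with lentivirus and selected with puromycin, so that both groups share these treatments. The study lists more than one hairpin against YEATS2, and the sources used here do not tell which one was used in either shYEATS2 library. A single cell line was used. The study describes its data in general as biological replicates, but the labels do not say that these libraries came from separate cultures. The p-values therefore measure the spread between these libraries, which may be technical.

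SP and KLF proteins share a DNA-binding domain of C2H2 zinc fingers at the C-terminus and bind GC-rich elements, the GC box and the related CACCC box. They differ in the regions outside the zinc fingers, through which they recruit coactivators or corepressors. SP1 and SP3 are present in most cell types and compete for the same sites, whereas many KLF genes respond quickly to growth factors, stress or hormones, and KLF4 and KLF5 are known for opposing roles in the differentiation and proliferation of squamous epithelium. The comparison of shYEATS2 with shControl shows the mRNA levels of these factors after YEATS2 was lowered. It does not measure the effect of SP1 on YEATS2.

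The sequences before the transcription starts of 4 members are printed because GC boxes are the elements that SP1 is known to bind and because they differ in how many they hold. Each is the 250 bases before a start, 5′ to 3′ on the strand of the gene, with the GC boxes (GGGCGG, or CCGCCC on the other strand) in capitals. The sequences are from RefSeq (GRCh38.p14). The intervals are chr12:53379926-53380175 on the plus strand for SP1, chr2:173965374-173965623 on the minus strand for SP3, chr19:16324576-16324825 on the plus strand for KLF2 and chr9:70414658-70414907 on the minus strand for KLF9.
SP1: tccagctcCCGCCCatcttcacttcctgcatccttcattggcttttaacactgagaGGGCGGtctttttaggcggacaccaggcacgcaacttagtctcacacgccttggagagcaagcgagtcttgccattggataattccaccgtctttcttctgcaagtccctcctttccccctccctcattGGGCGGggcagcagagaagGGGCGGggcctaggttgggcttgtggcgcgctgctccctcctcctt
SP3: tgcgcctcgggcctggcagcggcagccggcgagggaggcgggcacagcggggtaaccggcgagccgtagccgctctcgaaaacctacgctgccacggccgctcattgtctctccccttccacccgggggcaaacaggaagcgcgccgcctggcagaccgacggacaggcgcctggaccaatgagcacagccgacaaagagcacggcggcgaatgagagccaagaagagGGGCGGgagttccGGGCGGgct
KLF2: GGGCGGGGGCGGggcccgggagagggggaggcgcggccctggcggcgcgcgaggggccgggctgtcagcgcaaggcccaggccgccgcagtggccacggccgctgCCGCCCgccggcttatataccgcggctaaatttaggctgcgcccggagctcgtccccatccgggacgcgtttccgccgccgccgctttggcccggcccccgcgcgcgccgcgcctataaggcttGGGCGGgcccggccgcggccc
KLF9: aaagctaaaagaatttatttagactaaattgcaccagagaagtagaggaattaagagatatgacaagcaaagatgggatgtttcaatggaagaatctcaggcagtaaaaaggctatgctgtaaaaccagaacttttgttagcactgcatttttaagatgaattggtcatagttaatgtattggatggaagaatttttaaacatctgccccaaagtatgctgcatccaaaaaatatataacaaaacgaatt

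Among 35116 RefSeq starts, 42.6% had at least 1 GC box in the 250 bases before them and 7.6% had at least 4. RefSeq had 17 starts for 9 of the 10 members, of which 12 had a GC box, and none was matched for KLF10. At least 1 start with a GC box was found for 8 of these 9 genes, all but KLF9, which had a GC content of 32.4% in the 250 bases against a median of 58.0% over all starts. SP1 itself had 4 GC boxes before its outermost start and 8 before a second start, a number reached by 0.6% of all starts. KLF2 and KLF4 had 4 each, KLF6 had 2, the 3 starts of SP3 had 1 or 2, and the 2 starts of KLF11 had 2 and 6. The 2 starts of KLF5 had 0 and 2, and of the 4 starts of KLF7 only 1 held GC boxes, 4 in number. CACCC boxes (CACCC, or GGGTG on the other strand) were found at 8 of the 17 starts, which belong to 4 genes, and at 54.7% of all starts, and no GC box of a member overlapped one. These matches describe letters in the sequence and are not sites at which binding was measured here.

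YEATS2 mRNA, the target of the hairpin, was 66.1 and 66.7 CPM (counts scaled to a common library size, with TMM factors) in shControl 1 and 2, and 29.2 and 29.1 CPM in shYEATS2 1 and 2. Its level in shYEATS2 was 0.440 times that in shControl (log2 fold change -1.19, SE 0.08, edgeR quasi-likelihood test with Benjamini-Hochberg adjustment, adjusted p = 3.55e-21). Library totals on genes were 39824898 and 47297970 counts in shControl and 11334133 and 24072396 in shYEATS2, so the depth moved with the group. At an adjusted p under 0.05, 46.2% of the tested genes were called, 22.6% higher and 23.6% lower in shYEATS2 (3857 and 4019 genes, and 5441 and 2567 with library totals as the only scaling). The epithelial markers KRT8 and KRT18 were present, but TP63 and KRT17 were at or near 0 in all 4 libraries, CDH1 was at most 0.353 CPM in shControl and 2.84 CPM in shYEATS2, KRT5 was at 16.4 and 14.9 CPM in shControl and at 1.03 and 1.36 CPM in shYEATS2, and the summed level of 8 epithelial markers was 392 to 398 CPM in shControl and 191 to 206 CPM in shYEATS2. Of the 6 epithelial markers that could be tested, KRT5, KRT14, EPCAM, KRT8 and KRT18 were lower and CDH1 was higher. The summed level of 8 fibroblast markers, mostly collagens, was 7212 to 7302 CPM in shControl and 2224 to 2363 CPM in shYEATS2. Leukocyte markers summed to at most 1.85 CPM in any library. Endothelial markers summed to 35.6 to 36.6 CPM in shControl and to 19.0 to 20.2 CPM in shYEATS2. Nearly all of this was KDR, with CDH5 and VWF at or near 0. Of the 3 endothelial markers that could be tested, KDR was lower, TEK was higher and PECAM1 was not called. TEK was at most 0.594 CPM in any library and was not called with DESeq2 (adjusted p = 0.218). The part of these marker differences in the results below was not tested.

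In shYEATS2, 7 of the 10 members were higher, all of them KLF genes, 2 were lower, SP1 and SP3, and KLF10 was not called. Over all tested genes, 22.6% were higher and 23.6% lower. The median log2 fold change of the 10 members was 0.34, against -0.01 over all tested genes, where 10% of the genes lay below -0.65 and 10% above 0.78. The 8 KLF members ran from 0.04 for KLF10 to 1.52 for KLF4, while SP1 and SP3 were at -0.23 and -0.28. The libraries of the 2 groups did not overlap in 9 of the 10 members, which has to be read against 71.6% of all tested genes. Both shYEATS2 libraries were above both shControl libraries in 7 members, against 35.3% of all tested genes, and below them in 2, against 36.3%. In bulk RNA, a change in the number of cells that express a gene and a change in the RNA per cell cannot be told apart.

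**Figure D1:**
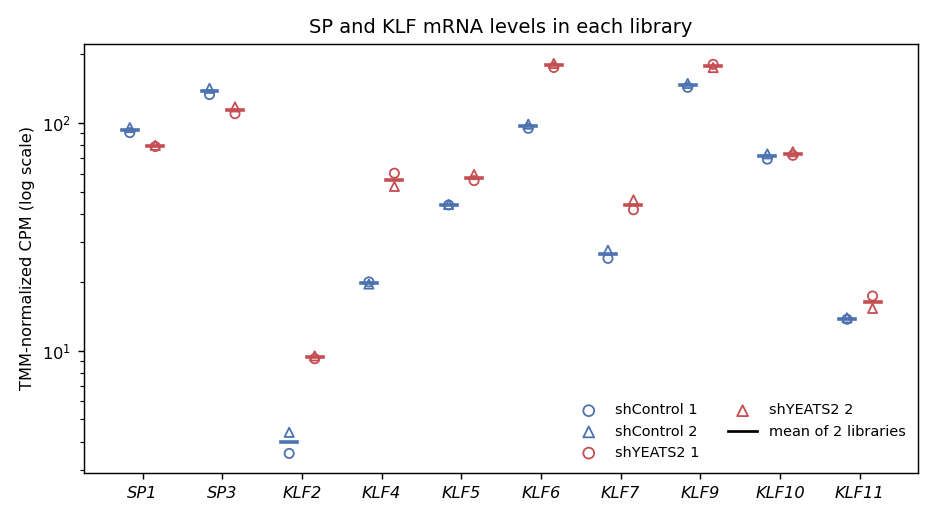
Level of each of the 10 members in each of the 4 libraries, as TMM-normalized CPM on a log axis (blue, shControl; red, shYEATS2; circles, replicate 1; triangles, replicate 2; bars, mean of 2 libraries). KLF2, KLF4, KLF6 and KLF7 stand clearly above shControl in both shYEATS2 libraries, SP1 and SP3 stand below it, and KLF10 overlaps.

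SP1 is an activator with glutamine-rich activation domains and lies on chromosome 12 (GRCh38, 53380176 to 53416446, plus strand). SP1 was at 90.7 and 95.5 CPM in shControl 1 and 2 and at 78.8 and 79.8 CPM in shYEATS2 1 and 2. Both shYEATS2 libraries were below both shControl libraries. SP1 fell by 0.23 on the log2 scale (SE 0.07, 95% interval -0.36 to -0.10, edgeR adjusted p = 0.00302), to 85.2% of its level in shControl. This was smaller than the median size of 0.49 among all called genes, and 30.8% of the tested genes had a lower log2 fold change. The call was lost without shControl replicate 2 (-0.20), and with library totals as the only scaling (-0.10, edgeR adjusted p = 0.211). That setting moved the median of all genes to 0.13. SP1 lay 0.22 below the median under either scaling. A change of scaling moves all genes by nearly the same amount, so this distance is no further evidence of a fall.

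SP3 binds the same elements as SP1 and can activate or repress, depending on the isoform and on its modification by SUMO. SP3 (chromosome 2, 173880850 to 173965373, minus strand) was at 133 and 142 CPM in shControl 1 and 2 and at 110 and 118 CPM in shYEATS2 1 and 2, again without overlap of the groups. SP3 fell by 0.28 on the log2 scale (SE 0.06, 95% interval -0.41 to -0.15, edgeR adjusted p = 2.24e-04), to 82.4% of its level in shControl. With library totals alone SP3 was at -0.14 (edgeR adjusted p = 0.0521) and was not called. It lay 0.27 below the median of all genes, a distance that the scaling hardly changes and that adds no evidence. The ratio of SP3 to SP1, from levels per kb of transcript, was 0.963 and 0.9748 in shControl and 0.913 and 0.967 in shYEATS2, and the groups overlapped (exact permutation test, two-sided p = 0.667). Counts per gene do not separate the isoforms of SP3. The processed pseudogene SP3P had 7 and 11 counts in shControl and 0 in both shYEATS2 libraries, against at least 1386 counts for SP3 in any library.

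KLF4, which promotes terminal differentiation of squamous epithelium and is one of the reprogramming factors, had the largest log2 fold change of the 10 members. KLF4 (chromosome 9, 107484852 to 107490482, minus strand) was at 20.1 and 19.6 CPM in shControl 1 and 2 and at 60.2 and 52.7 CPM in shYEATS2 1 and 2. The lower shYEATS2 library was well above both shControl libraries. Its level rose 2.86-fold (log2 fold change 1.52, SE 0.08, 95% interval 1.35 to 1.68, edgeR adjusted p = 2.59e-25), and 3.26% of all tested genes had a higher log2 fold change. An unnamed gene on the opposite strand (ENSG00000289987) shares 357 exon bases with KLF4 in GENCODE release 44. It has no row in the count tables and could not be analysed here. Whether any of its reads were given to KLF4 cannot be seen from the counts. The strand setting of the counting is not given in the sources used here.

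KLF5, which maintains proliferation in the basal layer of epithelia, changed much less. KLF5 (chromosome 13, 73054976 to 73077541, plus strand) was at 43.7 and 43.9 CPM in shControl 1 and 2 and at 55.9 and 59.4 CPM in shYEATS2 1 and 2, without overlap. It rose 1.31-fold (log2 fold change 0.39, SE 0.07, 95% interval 0.24 to 0.54, edgeR adjusted p = 1.00e-05). The ratio of KLF4 to KLF5 per kb of transcript was therefore 0.525 and 0.511 in shControl and 1.23 and 1.01 in shYEATS2 (exact permutation test, two-sided p = 0.333, the smallest that 2 against 2 libraries can give). KLF5 mRNA was thus more abundant than KLF4 in both shControl libraries and KLF4 was ahead in both shYEATS2 libraries, by little in shYEATS2 2. With the length of all annotated exons in place of that of the canonical transcript, KLF5 stayed ahead of KLF4 in the shYEATS2 mean.

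KLF2 is known as a factor of quiescent endothelium and T cells that is induced by shear stress through the kinase ERK5. KLF2 (chromosome 19, 16324826 to 16328685, plus strand) was the least abundant member, with 3.55 and 4.39 CPM in shControl 1 and 2 and 9.24 and 9.50 CPM in shYEATS2 1 and 2. These levels rest on 161, 166, 234 and 112 counts in that order. The groups were far apart, and KLF2 rose 2.36-fold (log2 fold change 1.24, SE 0.15, 95% interval 0.93 to 1.55, edgeR adjusted p = 4.02e-10). The SE was the largest of the 10 members.

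KLF6 is a broadly expressed factor that is induced by tissue injury and acts as a tumour suppressor in several tissues. KLF6 (chromosome 10, 3775996 to 3785281, minus strand) was at 94.7 and 98.8 CPM in shControl 1 and 2 and at 175 and 182 CPM in shYEATS2 1 and 2. The replicates of each group lay close together and the groups did not overlap. KLF6 rose 1.85-fold (log2 fold change 0.88, SE 0.06, 95% interval 0.76 to 1.01, edgeR adjusted p = 1.22e-19). The gain in CPM was also the largest among the members.

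KLF7, known from neuronal development and the closest relative of KLF6, was at 25.5 and 27.7 CPM in shControl 1 and 2 and at 41.6 and 46.0 CPM in shYEATS2 1 and 2. It rose 1.64-fold (chromosome 2, 207074137 to 207173856, minus strand, log2 fold change 0.71, SE 0.08, edgeR adjusted p = 4.51e-11). The long non-coding RNA MYOSLID lies on the opposite strand, shares 67 exon bases with KLF7 and also rose (9.50 and 8.79 CPM in shControl, 17.6 and 19.4 CPM in shYEATS2, log2 fold change 1.001, edgeR adjusted p = 1.38e-11). Its counts were at most 445 in a library, against 542 to 1155 for KLF7. How many reads of the shared bases were given to either gene cannot be seen from the counts.

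KLF9 is a repressor that is induced by glucocorticoids and thyroid hormone. KLF9 (chromosome 9, 70384604 to 70414657, minus strand) was at 143 and 149 CPM in shControl 1 and 2 and at 181 and 175 CPM in shYEATS2 1 and 2, without overlap. It rose 1.22-fold (log2 fold change 0.28, SE 0.06, edgeR adjusted p = 8.20e-05), and 26.7% of all tested genes had a higher log2 fold change.

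KLF10 and KLF11 are repressors that are induced early by TGF-beta. KLF10 (chromosome 8, 102648784 to 102655725, minus strand) was at 69.4 and 73.2 CPM in shControl 1 and 2 and at 72.1 and 74.8 CPM in shYEATS2 1 and 2. The groups overlapped, and the difference was 0.04 on the log2 scale with a 95% interval of -0.10 to 0.18 (edgeR adjusted p = 0.661). KLF10 was called higher with library totals alone (0.17, adjusted p = 0.0274), close to the median of all genes under that scaling. KLF11 (chromosome 2, 10042849 to 10054836, plus strand) was at 13.8 and 14.0 CPM in shControl 1 and 2 and at 17.4 and 15.4 CPM in shYEATS2 1 and 2. Its groups did not overlap, but the call was close to the threshold (log2 fold change 0.26, SE 0.11, 95% interval 0.04 to 0.47, edgeR adjusted p = 0.0415). The call for KLF11 was lost with DESeq2 (adjusted p = 0.306), with the replicate block (0.25, adjusted p = 0.0569), without a filter on low counts, at equal depth, and without shControl replicate 1, shControl replicate 2 or shYEATS2 replicate 1.

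**Figure D2:**
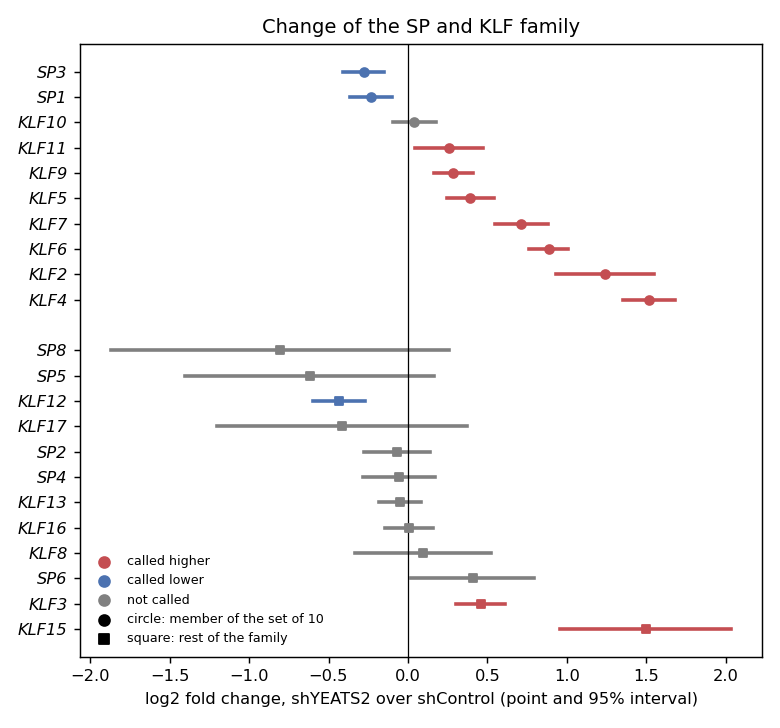
Log2 fold change of shYEATS2 over shControl with its 95% interval for the 10 members (circles) and the 12 other SP and KLF genes that could be tested (squares), coloured by the edgeR call. Among the members, SP1 and SP3 lie below 0, KLF10 spans 0 and 7 KLF genes lie above it, while most other family genes span 0.

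The order of the members was compared per kb of the canonical transcript, so that long and short mRNAs can be set side by side. In shControl the level was highest for KLF9 (27.6 and 28.7 CPM per kb), followed by KLF10 (23.8 and 25.1), KLF6 (20.6 and 21.5) and KLF5 (13.0 and 13.1). SP1 (11.8 and 12.4 CPM per kb) and SP3 (11.4 and 12.1) came next and overlapped each other, and KLF4, KLF11, KLF7 and KLF2 followed without overlap between neighbours, down to 1.26 and 1.56 for KLF2. In shYEATS2 the first place was taken by KLF6 (38.2 and 39.7 CPM per kb), before KLF9 (34.8 and 33.7) and KLF10 (24.7 and 25.6). KLF4 moved up from behind SP1 and SP3 to the place after KLF10 (20.5 and 17.9 CPM per kb), before KLF5, SP1 and SP3. KLF7 and KLF11 changed places, and no neighbours overlapped in shYEATS2. With the length of all annotated exons, KLF9 stayed before KLF6 and KLF5 before KLF4 in shYEATS2, and the other places were as given.

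The 8 KLF members summed to 99.6 and 103 CPM per kb in shControl 1 and 2 and to 147 CPM per kb in both shYEATS2 libraries. SP1 and SP3 summed to 23.2 and 24.5 CPM per kb in shControl and to 19.6 and 20.4 CPM per kb in shYEATS2. The ratio of these sums, which does not depend on the scaling of the libraries, was 4.30 and 4.21 in shControl and 7.51 and 7.22 in shYEATS2, a 1.73-fold difference of the means (exact permutation test, two-sided p = 0.333, the smallest possible). With all exons as the length, the fold was 1.71, and it stayed between 1.70 and 1.76 when each library was left out. The KLF genes made up 80.8% to 81.1% of the summed level of the 10 members in shControl and 87.8% to 88.2% in shYEATS2. KLF6 alone rose from 20.7% and 20.8% of the KLF sum to 25.9% and 27.0%, while KLF9 went from 27.7% in both shControl libraries to 23.6% and 22.8%. All SP and KLF genes together summed to 177 and 183 CPM per kb in shControl and to 224 and 222 CPM per kb in shYEATS2, of which the 10 members made up 69.5% to 70.0% and 74.6% to 75.6%.

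**Figure D3:**
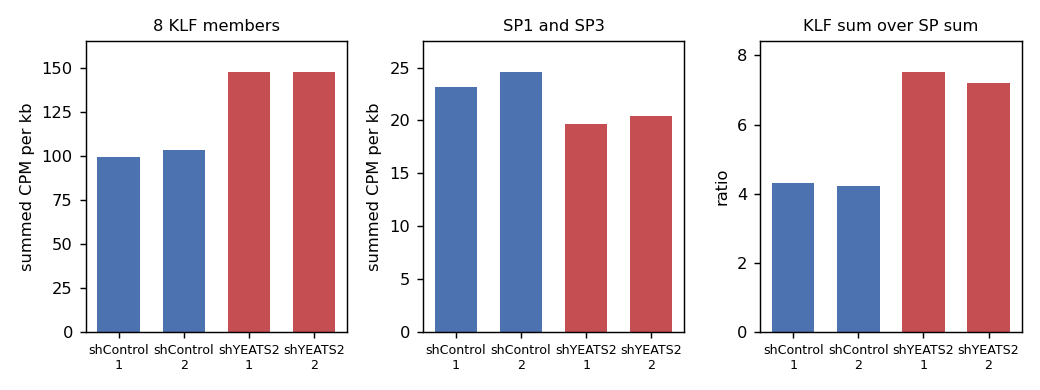
Summed level of the 8 KLF members (left) and of SP1 and SP3 (middle) in CPM per kb of canonical transcript, and the ratio of these sums (right), with 1 bar for each library. The ratio is 4.21 to 4.30 in the shControl libraries and 7.22 to 7.51 in the shYEATS2 libraries.

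Of the 17 other SP and KLF genes, 12 could be tested, with a median log2 fold change of -0.05. Of these, 2 were called higher and 1 lower (16.7% and 8.3%, against 22.6% and 23.6% of all tested genes). KLF15, a regulator of amino acid and glucose metabolism, rose from a very low level (1.19 and 1.08 CPM in shControl, 3.40 and 2.97 CPM in shYEATS2, log2 fold change 1.496, edgeR adjusted p = 3.65e-06). KLF3, a repressor that recruits CTBP, was at 36.6 and 38.8 CPM in shControl and at 49.9 and 54.1 CPM in shYEATS2 (0.46, edgeR adjusted p = 9.99e-07). KLF12, which also recruits CTBP, moved the other way, from 39.7 and 40.7 CPM to 30.0 and 29.4 CPM (-0.43, edgeR adjusted p = 1.05e-05). The closest relatives of SP1 and SP3 were not called. SP2 was at -0.07 and SP4 at -0.06, both of which changed sign with library totals alone (0.07 and 0.08). The abundant KLF13 (-0.05, also reversed with library totals alone, 0.08) and KLF16 (0.01) were not called either, nor were KLF8 (0.09), KLF17 (-0.41), SP5 (-0.62), SP6 (0.41) and SP8 (-0.80), all of which were at or below 4.82 CPM. SP6 was called higher with library totals alone (0.54, adjusted p = 0.0216) and without shYEATS2 replicate 2 (0.51, edgeR adjusted p = 0.0493). SP7, SP9, KLF1, KLF14 and KLF18 had too few counts for a test.

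KLF proteins are commonly sorted by the partner that their N-terminal region recruits, and the family was sorted in this way after the values had been seen. Over all tested genes, 22.6% were higher and 23.6% lower. Among KLF genes whose proteins bind acetyltransferases (KLF1, KLF2, KLF4, KLF5, KLF6 and KLF7), all 5 that could be tested were higher, with a median log2 fold change of 0.88. These 5 are members whose calls were given above, so the count restates those calls. Among those that bind SIN3A (KLF9, KLF10, KLF11, KLF13, KLF14 and KLF16), 2 of 5 tested were higher, KLF9 and KLF11, with a median of 0.04. Of the 3 that bind CTBP, KLF3 was higher, KLF12 was lower and KLF8 was not called. The difference between these sets was not tested.

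The lists that follow have to be read against the 22.6% of all tested genes that were higher and the 23.6% that were lower, and against their median of -0.01. Of 12 coactivators and corepressors, 3 were higher and 3 lower (25.0% each, close to all tested genes), with a median log2 fold change of 0.04. With library totals alone, 5 were higher and 1 lower, and without shYEATS2 replicate 1, 5 were lower. The corepressor CTBP2 was higher (0.30, edgeR adjusted p = 1.33e-04), whereas its paralog CTBP1 was lower (-0.18, edgeR adjusted p = 0.0246, DESeq2 adjusted p = 0.0844). SIN3A, the scaffold bound by KLF9, KLF10 and KLF11, was also lower (84.2 and 86.2 CPM in shControl, 69.9 and 71.7 CPM in shYEATS2, -0.27, edgeR adjusted p = 6.84e-04, and -0.13 with adjusted p = 0.0820 with library totals alone). The deacetylase HDAC1 was lower (-0.29, edgeR adjusted p = 1.49e-04) and its paralog HDAC2 higher (0.27, edgeR adjusted p = 3.92e-04). The acetyltransferase EP300 was higher by a small amount (0.18, edgeR adjusted p = 0.0192, DESeq2 adjusted p = 0.111), and its paralog CREBBP was not called (-0.14). Of 9 ubiquitin ligases and deubiquitinases that are known to act on SP or KLF proteins, 4 were higher and 2 lower (1 lower with library totals alone or without shControl replicate 2). The higher genes were SIAH1 (0.40) and SMURF1 (0.31), both ligases, VHL (0.225, DESeq2 adjusted p = 0.0829) and the deubiquitinase ATXN3 (0.67). The lower genes were the deubiquitinase BAP1 (-0.36) and the ligase FBXO32 (-0.23). WWP1 and FBXW7, both ligases of KLF5, were not called. Protein levels were not measured here.

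Genes known to act upstream of the KLF genes were counted next. Of 7 genes of the ERK5 and MEF2 pathway, which induces KLF2 and KLF4 in endothelium, 0 were higher and 3 lower, with a median log2 fold change of -0.26. The 3 lower genes were MAPK7, which encodes ERK5 (21.6 and 23.3 CPM in shControl, 17.6 and 15.4 CPM in shYEATS2, -0.43, edgeR adjusted p = 2.98e-04), and the upstream kinases MAP3K3 (-0.40) and MAP3K2 (-0.28). MAP2K5 and the MEF2 genes were not called. With library totals alone, 2 genes of this list were called higher, and without shYEATS2 replicate 2, 1 was.

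KLF2, KLF4, KLF6 and KLF10 are often induced together with early-response genes. Of 17 such genes, 8 were higher and 0 lower (2 lower without shYEATS2 replicate 1), with a median log2 fold change of 0.17. ATF3, a stress-induced factor, was at 6.30 and 6.62 CPM in shControl and at 36.9 and 34.8 CPM in shYEATS2 (2.48, edgeR adjusted p = 2.28e-31). IER3 (1.15) and CCN1 (1.01) were also higher, as were JUN and GADD45B. FOSB, EGR2 and EGR3 were called higher at low levels, at most 6.79, 4.03 and 0.679 CPM in any library. EGR3 rested on 3 and 12 counts in shControl and on 14 and 8 in shYEATS2. With DESeq2 it was not called (adjusted p = 0.235). FOS, EGR1, JUNB, DUSP1, ZFP36 and NR4A1, which are among the most quickly induced, were not called.

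Of 10 genes made up of the glucocorticoid receptor, which induces KLF9, and genes that respond to it, 5 were higher and 3 lower (1 lower with library totals alone), with a median of 0.31. The receptor NR3C1 was higher (0.29), as were TSC22D3 (0.41) and ERRFI1, an inhibitor of EGFR signalling (145 and 154 CPM in shControl, 394 and 403 CPM in shYEATS2, 1.42, edgeR adjusted p = 5.32e-31). ZBTB16 (-1.09), PER1 (-0.30) and FKBP5 (-0.18) were lower. Of 10 TGF-beta and SMAD genes, 6 were higher and 1 lower, with a median of 0.22. TGFB2 (1.08), the receptor TGFBR1 (0.81) and the inhibitory SMAD7 (0.69) were higher and the ligand TGFB1 was lower (-0.47), while KLF10, an early target of the pathway, was not called.

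Genes described as targets of these factors were counted last. Of 12 genes that are known targets of SP1, 5 were higher and 4 lower (41.7% and 33.3%, against 22.6% and 23.6% of all tested genes), with a median log2 fold change of 0.17. With library totals alone, 2 were lower. CCND1, the cyclin of the G1 phase, was at 112 and 111 CPM in shControl and at 189 and 181 CPM in shYEATS2 (0.74, edgeR adjusted p = 1.95e-16), and EGFR was also higher (0.58). IGF1R, the receptor for insulin-like growth factors, was lower (15.6 and 15.0 CPM in shControl, 10.1 and 7.98 CPM in shYEATS2, -0.72, edgeR adjusted p = 6.05e-07). The nucleotide synthesis genes TYMS and TK1 split, with TYMS lower (-0.24) and TK1 higher (0.25). GCDH, an enzyme of lysine degradation that makes crotonyl-CoA and that the study ties to SP1, was at 15.8 and 16.7 CPM in shControl and at 15.3 and 15.2 CPM in shYEATS2. GCDH was not called (-0.09, edgeR adjusted p = 0.4997, and 0.04 with library totals alone).

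Of 10 epithelial targets of KLF4 and KLF5, only 6 could be tested, since the squamous genes KRT4, KRT13, FGFBP1 and TGM1 were at or near 0. Of the 6, 3 were higher and 1 lower. CCND1 was higher as above, as was BIRC5 (0.43), which encodes survivin, and PDGFA was lower (-0.18, edgeR adjusted p = 0.0201). The PDGFA call was lost with DESeq2 (adjusted p = 0.0608), with library totals alone, at equal depth, at an adjusted p under 0.01 and without either shControl library, so that 0 genes of this list were then lower. CDH1 was called higher from 0.353 and 0.318 CPM to 2.84 and 2.12 CPM (2.91, edgeR adjusted p = 4.61e-10), still a low level, and was the only epithelial marker of the 6 tested that rose. IVL, a protein of the cornified envelope, was not called.

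Of 11 targets of KLF2 and KLF6, 9 could be tested, of which 6 were higher and 2 lower, with a median log2 fold change of 0.81. S1PR1, the sphingosine-1-phosphate receptor and a target of KLF2 in T cells, was at 5.78 and 6.77 CPM in shControl and at 19.5 and 18.1 CPM in shYEATS2 (1.60, edgeR adjusted p = 1.74e-18). THBD, which encodes thrombomodulin, was higher (0.75, edgeR adjusted p = 2.41e-11), and NOS3 was called at under 1.5 CPM with an adjusted p next to the threshold (0.84, edgeR adjusted p = 0.04996). PLAU, which encodes urokinase, was also higher (3.105, edgeR adjusted p = 5.16e-23), at a mean level under 10 CPM. ATF3 and TGFBR1 are in this list as well. COL1A1, a target of KLF6 in stellate cells, was lower (2845 and 2747 CPM in shControl, 927 and 855 CPM in shYEATS2, -1.65, edgeR adjusted p = 2.35e-34), together with the other collagens among the fibroblast markers. Over the 9 lists of cofactors, upstream genes and targets together, 85 of 91 genes were tested, with 37 higher (43.5%, against 22.6% of all tested genes) and 18 lower (21.2%, against 23.6%). With library totals alone, 45 were higher and 10 lower. The lists were chosen with earlier results of these data known, so these shares are not a test of the lists.

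The genes whose profile over the 4 libraries was nearest to that of a member were found among the 9364 genes whose mean reached 10 CPM, by the distance between log2 CPM values centred on their own means. Nearest to SP1 were PAPSS1, which makes the sulfate donor PAPS (distance 0.00872), ARL6IP5 (0.00931) and the histone gene H3F3A (0.0114), all at between -0.24 and -0.23 on the log2 scale. With library totals alone PAPSS1 was at -0.093, ARL6IP5 at -0.10 and H3F3A at -0.10, and like SP1 they were then not called. Nearest to KLF4 was PPP1R15A, which encodes GADD34, a phosphatase subunit of the stress response (distance 0.0348), at 79.2 and 78.8 CPM in shControl and at 233 and 210 CPM in shYEATS2. UBALD2 (0.123) was next. With 4 libraries in 2 groups, these distances describe mainly the size of the difference between the groups.

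**Figure D4:**
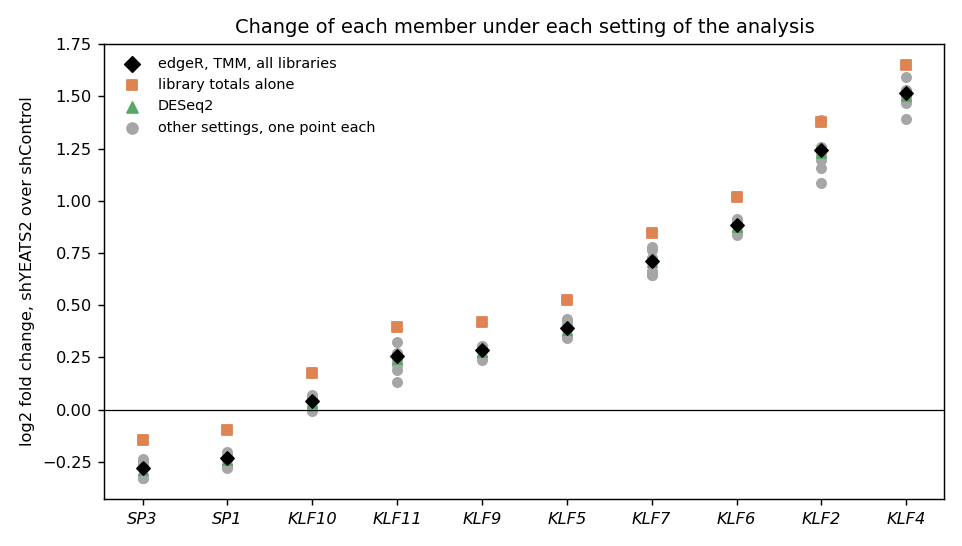
Log2 fold change of each member under the analysis as reported (black diamonds), with library totals alone (orange squares), with DESeq2 (green triangles) and under the other settings, including each library left out (grey circles). All 10 members sit higher with library totals alone, SP1 and SP3 stay below 0 in each setting, KLF10 lies on both sides of 0, and the other members stay above 0.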

How the data were processed

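RNA-seq was performed on BICR10 cells as pairs of 150 bp reads from a stranded mRNA kit. The authors aligned reads to GRCh38 with STAR, counted read pairs per gene with HTSeq and deposited raw counts. Which annotation and which strand option HTSeq used is not given in the sources used here. Rows without a gene (15.3% to 16.5% of a library's total) were left out.

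Counts were filtered with filterByExpr, scaled with TMM and tested over 17058 genes with the quasi-likelihood test of edgeR 4.0.16 in R 4.3.3, with calls made where the p adjusted by Benjamini-Hochberg was under 0.05. Each log2 fold change is shYEATS2 over shControl, with its SE. CPM per kb used the length of the canonical transcript in GENCODE release 44, in which 60295 of the 60623 gene identifiers were found. Scripts were tested on simulated data. Replicates differed by more than counting noise (chi-square per degree of freedom 5.95 and 5.39). The labels do not say whether same-numbered libraries form pairs. The correlation of their deviations was -0.018, which cannot decide this, since libraries prepared together need not deviate alike. Alternatives included limma-voom (limma 3.58.1), DESeq2 1.42.0, other scalings and filters, a replicate block, thinning and leaving out each library.

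The members and gene lists were chosen with earlier results of these data known. The genes named were all members, YEATS2, GCDH, the tested family, the 3 called genes of each list with the largest change at a mean of at least 10 CPM without overlap of the groups, and the 3 nearest profiles of SP1 and KLF4. Other genes named from the lists, and MYOSLID, were chosen after their values were seen. A few items that this rule or the lists would name are not reported here.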

Additional observations from a re-analysis of the deposited data

How the results depend on the processing

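KLF2, KLF4, KLF5, KLF6, KLF7 and KLF9 were called higher under each alternative tried. With library totals alone, 2567 of all tested genes were lower, 0 members and 10 genes of the partner, upstream and target lists were lower, the members' median was 0.47, SP1 was at -0.10, SP3 at -0.14 and KLF10 at 0.17. SP2 (0.067), SP4 (0.076), KLF13 (0.084) and GCDH (0.042) changed sign there. This setting leaves out the TMM factors, and the median of all genes was at 0.13 under it. Without a filter the members' median was 0.29, KLF10 was at -0.0078, KLF16 at -0.040 and KLF11 at 0.21. DESeq2 called 2383 genes higher, with KLF11 at 0.24 and KLF16 at -0.0020. At equal depth the members' median was 0.36, KLF11 was at 0.19, SP4 at 0.021 and KLF8 at -0.14. At an adjusted p under 0.01 KLF11 (0.26) was not called. With the replicate block KLF11 was at 0.25 (adjusted p = 0.0569), and the block changed no other member's call. The labels do not say whether same-numbered libraries form pairs. With each library left out in turn, 6 to 7 members were higher and 1 to 2 lower, their median was 0.32 to 0.35, and 1 to 2 other family genes were lower. The ranges were -0.27 to -0.20 for SP1, -0.0024 to 0.072 for KLF10, 0.13 to 0.32 for KLF11, -0.18 to 0.052 for SP4, -0.065 to 0.27 for KLF8, -0.034 to 0.038 for KLF16 and -0.16 to 0.023 for KLF13. A lone library was assumed to vary like the other group. Of 850 values of single genes under the alternatives, 807 kept direction and call, 24 lost the call, 4 gained it and 15 changed sign. The cause of these changes was not tested. At equal depth KLF11 was the only member that lost its call. With 2 libraries a group no outlier could be tested.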
